A study of Homo sapiens with 6 samples.

Results

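The 10 epithelial keratins described here are KRT8, KRT18, KRT19, KRT20, KRT7, KRT17, KRT23, KRT80, KRT10 and KRT81, taken by gene symbol out of the 60662 genes with a value. They were selected on the difference between the groups compared below, so their levels and fold changes are given as a description and carry no test. The samples were HCT116 cells, an established human colorectal carcinoma line, transduced with lentivirus and kept as stable lines. One group, shCtrl, carried a nontarget control shRNA and is labelled WT, and the other, GMDS-AS1 KD, carried shRNA2 against the long noncoding RNA GMDS-AS1, with the hairpins cloned into the pLKO.1 puro plasmid. Each group had 3 libraries of poly-A RNA labelled as biological replicates, grown in McCoy's 5a medium with fetal bovine serum and given no other treatment in the labels. A single shRNA in a single line stands for the knockdown, so an effect of the hairpin itself and an effect of losing GMDS-AS1 cannot be told apart.

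Keratins are the intermediate filaments of epithelial cells. A filament forms only when an acidic type I chain pairs with a basic type II chain, and the unpaired chain is usually degraded. KRT8 (type II) with KRT18 (type I) is the first pair made in simple epithelium such as the gut lining, KRT19 is a type I partner of KRT8, and KRT20 marks differentiated intestinal cells, while other keratins belong to ducts, stressed or healing skin, cornified skin or hair. By this background the label "simple-epithelium and stress keratins" suits KRT8, KRT18, KRT19, KRT20, KRT7 and KRT17 better than KRT10, a keratin of the upper layers of the epidermis, and KRT81, a hair keratin. Of the 10 genes, 6 were type I (KRT18, KRT19, KRT20, KRT17, KRT23 and KRT10) and 4 were type II (KRT8, KRT7, KRT80 and KRT81).

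In the GRCh38 annotation the type II genes and KRT18 lie on chromosome 12 and the other type I genes on chromosome 17. KRT8 (ENSG00000170421) was annotated at chr12:52897187-52949954 on the minus strand and KRT18 (ENSG00000111057) at chr12:52948871-52952901 on the plus strand, so that the ends of this pair overlap. KRT7 (ENSG00000135480) lies at chr12:52232520-52252186 on the plus strand, KRT80 (ENSG00000167767) at chr12:52168996-52192000 and KRT81 (ENSG00000205426) at chr12:52285913-52291534, both on the minus strand. On chromosome 17 all 5 genes are on the minus strand: KRT19 (ENSG00000171345) at chr17:41523617-41528308, KRT23 (ENSG00000108244) at chr17:40922696-40937634, KRT20 (ENSG00000171431) at chr17:40875941-40885227, KRT10 (ENSG00000186395) at chr17:40818117-40822595 and KRT17 (ENSG00000128422) at chr17:41619441-41624842.

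A part of the coding sequence in which keratins resemble each other is the helix termination motif, the conserved end of the keratin rod through which chains assemble. The coding DNA around this motif is shown for KRT18, KRT19 and KRT23, the type I keratins whose levels differ between the groups in unlike ways below. It is taken from the GENCODE v29 transcripts of GRCh38. Capitals mark the 24 bases matched by the codon pattern used to find the motif, whose ends were not determined. Lower case marks 15 coding bases on each side. The matched stretch begins at coding base 1138 in KRT18 and in KRT19, and 1111 in KRT23.
KRT18: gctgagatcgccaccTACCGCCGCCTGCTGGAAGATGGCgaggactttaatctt
KRT19: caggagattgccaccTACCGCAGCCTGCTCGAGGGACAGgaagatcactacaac
KRT23: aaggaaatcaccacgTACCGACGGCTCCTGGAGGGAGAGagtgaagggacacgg

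KRT18 and KRT19 shared 32 of these 54 bases, KRT19 and KRT23 shared 30 and KRT18 and KRT23 shared 29. Part of this sharing was set in advance, since the motif was located by its codons for Tyr, Leu, Leu and Glu. By exact match over 150 bases the keratin genes were distinct in most cases. Near matches with a few mismatches were not sought. No window of 150 bases of the principal transcripts of KRT8, KRT19, KRT20, KRT17, KRT23, KRT80 or KRT10 occurred unchanged in a transcript of another gene, on either strand. The exceptions were KRT18, with 11.0% of its windows in transcripts of KRT8, KRT7, with 4.80% in the antisense gene KRT7-AS, and KRT81, with 25.6% in the hair keratin KRT86.

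Expression was deposited as TPM, a unit that divides reads by transcript length and rescales each library to one common sum and so allows levels of different genes to be compared within a library. Read totals cannot be recovered from such values, so depth is unknown and no counting error is given. Each library listed 24381 to 26402 genes above 0, the higher numbers in shCtrl. GMDS-AS1, listed under its current symbol GMDS-DT (ENSG00000250903), had 1.66, 2.21 and 1.34 TPM in shCtrl and 0.88, 0.91 and 0.79 TPM in GMDS-AS1 KD, with no overlap between the groups (log2 fold change -0.41, SE 0.14, limma with Benjamini-Hochberg adjusted p = 0.0407). Of all genes tested, 44.9% were lower in KD without overlap. The call of GMDS-AS1 was not repeated with other scalings or filters or with a library left out. The epithelial markers EPCAM (156 ± 13.3 TPM in shCtrl and 149 ± 9.52 in KD, SD, n = 3 each) and CDH1 (30.2 ± 3.24 and 27.9 ± 3.54) were present in every library. Of 12 colorectal markers, however, 8 stayed at or below 0.54 TPM throughout, among them VIL1, CDH17 and LGALS4, and PHGR1 and FABP1 were listed at 0. Of the 4 that were tested only CA2, an enzyme of absorptive cells, passed, from 44.8 ± 2.51 to 23.0 ± 1.47 TPM (log2 fold change -0.70, limma adjusted p = 0.000136). The 12 markers summed to 228 to 253 TPM in shCtrl and 196 to 220 TPM in KD, and their part in the keratin values was not tested. Markers of fibroblasts, endothelium and leukocytes summed to 21.0 to 23.7 TPM in shCtrl and 17.2 to 19.4 TPM in KD. Of these 10 genes, 8 stayed at or below 0.53 TPM, PTPRC was listed at 0 in every library, and COL1A1 (limma adjusted p = 0.204) and CD68 (0.0722) supplied most of the sum.

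Fold changes are log2 differences, KD minus shCtrl, on log2(TPM + 1) after scaling by trimmed means. Scaling moved the median of all 16901 genes tested from -0.195 for TPM as deposited to -0.002, so changes are relative to that median, and the added 1 understates the change of genes near 1 TPM. Over all genes tested, 25.9% were called lower and 28.5% higher at an adjusted p under 0.05 (4372 and 4810 genes, or 6814 and 2756 with TPM as deposited), and 4.24% and 2.93% were called with a fold change of at least 2. In deposited TPM the groups did not overlap for 6 keratins that were lower and 1 that was higher in GMDS-AS1-KD cells, and overlapped for the other 3, where 44.9% and 18.8% of all genes tested did not overlap in these directions. Nothing is read from these counts, because the keratins were chosen by this contrast. KRT17 has no fitted fold change, since it reached 0.5 TPM in fewer than 3 libraries, and KRT81 passed this filter only through its shCtrl libraries.

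KRT8, KRT18 and KRT19, the filament proteins of simple epithelium, held nearly all keratin RNA and were lower in GMDS-AS1-KD cells to unequal extents. KRT8 had 4566, 4357 and 4353 TPM in shCtrl and 1340, 1343 and 1391 TPM in KD. Every KD library was far below every shCtrl library, with means of 4426 ± 122 and 1358 ± 29 TPM (SD, n = 3 each), 3.26-fold lower in deposited TPM (log2 fold change -1.70 as deposited and -1.46, SE 0.03, after scaling). KRT18, its type I partner, had 3048, 2967 and 2902 TPM in shCtrl against 708, 688 and 710 TPM in KD. The means were 2972 ± 73.1 and 702 ± 12.4 TPM (log2 fold change -1.83, SE 0.02), a larger difference than that of KRT8. KRT19, the smallest of the keratins and one that lacks most of the usual tail, had 1827, 1764 and 1717 TPM in shCtrl and 1222, 1230 and 1273 TPM in KD. The groups again did not overlap, but the difference was far smaller, from 1769 ± 55.5 to 1242 ± 27.1 TPM (log2 fold change -0.26, SE 0.03, or -0.51 with TPM as deposited). In these bulk samples fewer cells that make a keratin and less of its RNA per cell cannot be told apart.

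Among all genes of a library, KRT8 ranked 26 to 29 by TPM in shCtrl and 120 to 123 in KD. KRT18 went from rank 51 to 56 to rank 173 to 175. KRT19 moved from rank 98 to 101 to rank 127 to 130, and thereby past KRT18. The coefficient of variation of these genes was 1.77% to 3.14% within a group, so that the libraries of a group were close to each other for the most abundant keratins.

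Because the 3 genes differed in how far they were lower, the composition of the keratin pool differed between the groups. The 10 keratins summed to 9496, 9154 and 9046 TPM in shCtrl and to 3318, 3303 and 3424 TPM in KD, or 0.931% ± 0.0241 and 0.337% ± 0.00666 of all TPM (SD, n = 3 each). KRT8, KRT18 and KRT19 made up 99.3% ± 0.121 of that sum in shCtrl and 98.6% ± 0.0964 in KD. The share of KRT19 was 19.2% ± 0.160 in shCtrl and 37.1% ± 0.215 in KD, that of KRT18 32.2% ± 0.185 and 21.0% ± 0.338, and that of KRT8 47.9% ± 0.293 and 40.6% ± 0.156.

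Ratios within a library do not depend on scaling between libraries. KRT19 had 0.599, 0.595 and 0.592 times the TPM of KRT18 in shCtrl and 1.73, 1.79 and 1.79 times in KD. The order of these type I keratins was therefore reversed in every KD library. Relative to KRT8, KRT18 stood at 0.672 ± 0.00798 in shCtrl and 0.517 ± 0.0103 in KD, and KRT19 at 0.400 ± 0.00523 and 0.914 ± 0.00188 (SD, n = 3 each, no test). Summed type I keratins stood at 1.07 ± 0.0130 times the summed type II keratins in shCtrl and at 1.44 ± 0.0114 times in KD.

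**Figure D1:**
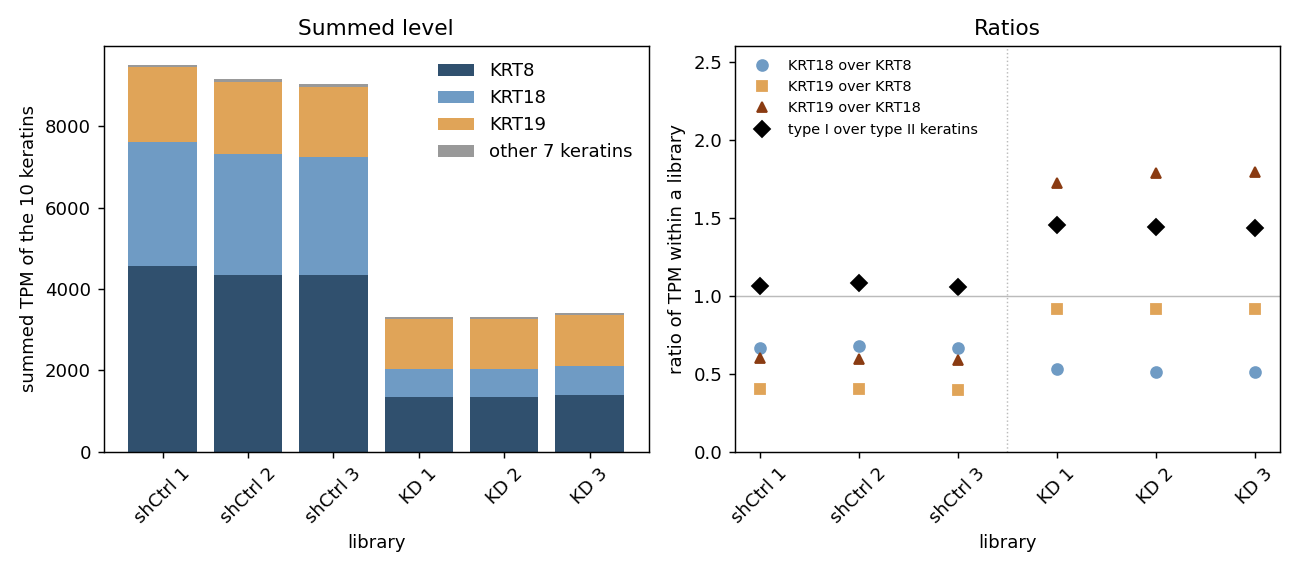
Left, summed TPM of the 10 keratins in each library as stacked bars of KRT8, KRT18, KRT19 and the other 7. Right, ratios of TPM within each library, where KRT19 over KRT18 lies near 0.595 in shCtrl and near 1.77 in KD, type I over type II is 1.07 in shCtrl and 1.44 in KD, and KRT18 over KRT8 is lower in KD.

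KRT7, the type II keratin of ducts and glands, was also lower in KD, from a far lower level than KRT8. It had 28.2, 29.6 and 34.0 TPM in shCtrl and 9.51, 8.18 and 14.4 TPM in KD. The groups did not overlap (30.6 ± 2.99 and 10.7 ± 3.29 TPM, log2 fold change -1.23, SE 0.18), although KD replicate 3 lay above the other KD libraries and gave a coefficient of variation of 30.7%. The ratio of KRT7 to KRT8 was 0.00618 to 0.00780 in shCtrl and 0.00609 to 0.0104 in KD, ranges that overlap. KRT7-AS, antisense to KRT7 with 282 shared exon bases, fell below the filter, with 0.633 ± 0.249 TPM in shCtrl and 0.103 ± 0.0252 in KD.

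KRT23, a type I keratin of the chromosome 17 cluster, was the one keratin of the 10 that was clearly higher in GMDS-AS1-KD cells. Its level was 7.59, 9.59 and 8.92 TPM in shCtrl and 21.3, 21.8 and 22.7 TPM in KD. All KD libraries were above all shCtrl libraries, with means of 8.70 ± 1.02 and 21.9 ± 0.726 TPM (log2 fold change 1.48, SE 0.09, or 1.25 with TPM as deposited). Its rank by TPM moved from between 8434 and 9267 to between 4441 and 4620. KRT23 had 0.285 ± 0.0337 times the TPM of KRT7 in shCtrl and 2.16 ± 0.549 times in KD, so the order of these minor keratins was reversed as well. An antisense gene, AC004231.1, shares 186 exon bases with KRT23.

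KRT80, a type II keratin found in many epithelia, had 3.88, 4.48 and 4.32 TPM in shCtrl and 1.44, 1.04 and 0.93 TPM in KD. It was lower in every KD library, from 4.23 ± 0.311 to 1.14 ± 0.268 TPM (log2 fold change -1.13, SE 0.12, and -1.59 with 0.1 added in place of 1). KRT81 had 1.83, 1.88 and 1.58 TPM in shCtrl and 0.35, 0.29 and 0.34 TPM in KD, again without overlap (1.76 ± 0.161 and 0.327 ± 0.0322 TPM, log2 fold change -0.95, SE 0.11, and -1.91 with 0.1 added). KRT86, which shares those stretches of 150 bases with KRT81, had 0.52, 0.53 and 0.35 TPM in shCtrl and 0.08, 0.08 and 0.09 TPM in KD, so KRT81 and KRT86 cannot be separated firmly here. KRT86 was named after its values were seen.

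KRT10, KRT20 and KRT17 showed no separation of the groups. KRT10 had 11.5, 19.5 and 23.6 TPM in shCtrl and 13.6, 9.71 and 10.5 TPM in KD (18.2 ± 6.14 and 11.3 ± 2.04 TPM, log2 fold change -0.38, SE 0.25). Its spread within shCtrl, a coefficient of variation of 33.7%, exceeded that of every other keratin but KRT17, and shCtrl replicate 1 lay inside the range of KD. KRT20 was scarce, at 1.21, 0.97 and 1.3 TPM in shCtrl and 1.11, 0.96 and 1.16 TPM in KD. Its fold change was 0.07 with scaling and -0.055 with TPM as deposited, both smaller than the SE of 0.11, so it had no stable direction. KRT17, the wound and stress keratin, stayed at 0.23 to 0.60 TPM in shCtrl and 0.28 to 0.58 TPM in KD. Its 8 annotated pseudogenes summed to as much as 270% of KRT17 in a library, which makes the KRT17 value uncertain.

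The order of the keratins by level was distinct in shCtrl, where no neighbours in the order KRT8, KRT18, KRT19, KRT7, KRT10, KRT23, KRT80, KRT81, KRT20 and KRT17 overlapped. In KD the order by mean was KRT8, KRT19, KRT18, KRT23, KRT10, KRT7, KRT80, KRT20, KRT17 and KRT81. There KRT10 and KRT7 overlapped, as did KRT80 and KRT20 and also KRT17 and KRT81, and the other neighbours did not.

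**Figure D2:**
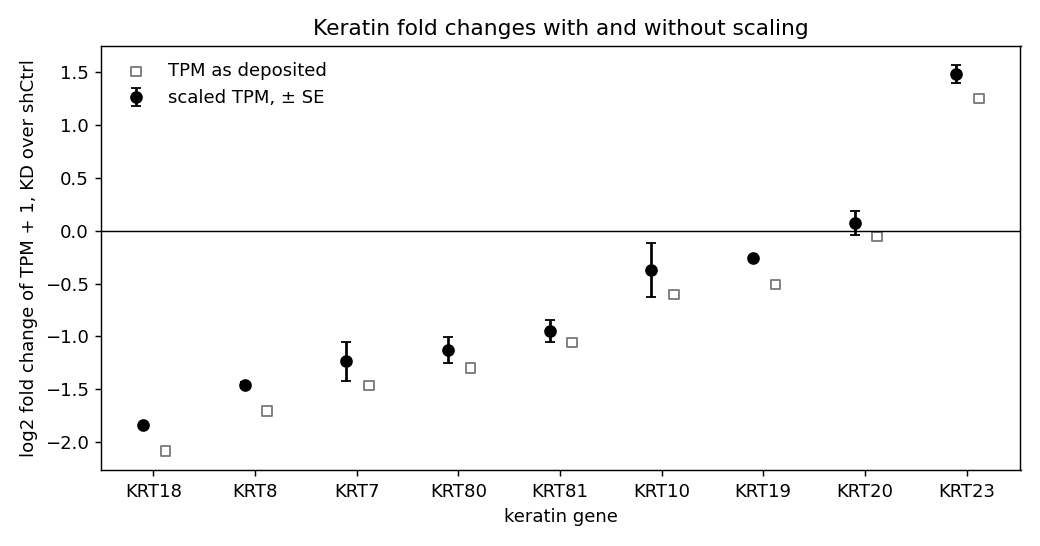
Log2 fold change of TPM + 1, KD over shCtrl, for the 9 keratins that passed the filter, with scaling (filled points, bars ± SE, smaller than the points for KRT8, KRT18 and KRT19) and for TPM as deposited (open squares). With 1 added to TPM the range runs from -1.83 for KRT18 to 1.48 for KRT23, and KRT20 lies on either side of 0 depending on scaling.

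The overlaps of KRT8 with KRT18 and the many processed copies of both genes bear on how their reads were assigned. KRT8 and KRT18 share 525 exon bases on opposite strands, 7.63% of the exon bases of KRT8 and 16.3% of those of KRT18, and no source used here states that strand was used in counting. Of 51 annotated KRT8 pseudogenes 36 were above 0 in some library, and together they summed to 26.2 to 30.8 TPM in shCtrl and 10.4 to 11.6 TPM in KD, at most 0.847% of KRT8. The largest, KRT8P3, went from 20.0 ± 1.96 to 6.16 ± 1.00 TPM (log2 fold change -1.33, SE 0.11, limma adjusted p = 8.23e-05). KRT8P12 (2.63 ± 0.494 and 1.50 ± 0.408 TPM, adjusted p = 0.0998) and KRT8P33 (2.38 ± 1.14 and 1.39 ± 0.477 TPM, adjusted p = 0.418) did not pass the limma test. The 67 KRT18 pseudogenes summed to at most 0.266% of KRT18 and the 5 of KRT19 to at most 0.0125% of KRT19. Whether these pseudogene values are reads of their parents was not tested. KRT10 shares 56 exon bases with TMEM99 on the other strand.

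The other 44 keratins of type I and II were nearly silent. Only 4 passed the filter, 12 were listed at 0 in every library, and the highest value of any that failed the filter was 2.65 TPM, for the wound keratin KRT6A in shCtrl replicate 1 (0.33 and 0.37 TPM in the other shCtrl libraries, 0.07, 0.16 and 0 TPM in KD). KRT16, a type I keratin of stressed skin, had 1.23, 1.05 and 1.03 TPM in shCtrl and 0.06, 0.22 and 0.08 TPM in KD (log2 fold change -0.83, SE 0.12). It was the one gene called of the 4 that were tested, where 25.9% of all genes tested were called lower, so the share was close to that background. KRT16 also passed the filter only through its shCtrl libraries and so had to differ. KRT15, a basal-layer keratin and the most abundant of the 44, had 17.4, 24.7 and 19.8 TPM in shCtrl and 15.1, 12.7 and 15.7 TPM in KD. Its groups did not overlap but it did not pass the test (log2 fold change -0.24, SE 0.13, limma adjusted p = 0.164, and 0.0213 with TPM as deposited). KRT13 (1.11 ± 0.157 and 0.827 ± 0.0751 TPM, adjusted p = 0.565) and KRT34 (0.580 ± 0.201 and 0.473 ± 0.0808 TPM, adjusted p = 0.963) did not pass the limma test either. Below the filter, KRT32 averaged 0.553 TPM in shCtrl and 0.247 in KD, and KRT39 0.263 and 0.550 TPM. In sum the 44 genes gave 25.1 to 30.9 TPM in shCtrl and 16.0 to 18.7 TPM in KD. KRT222, a keratin-like gene outside both lists and named after its values were seen, had 3.29 ± 0.589 TPM in shCtrl and 0.623 ± 0.336 TPM in KD (log2 fold change -1.27, SE 0.18). With 0.46, 0.40 and 1.01 TPM in the KD libraries, KRT222 met the filter through its shCtrl libraries, so no test is given for it.

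Genes that tie keratin filaments to the membrane moved in both directions. Of 22 genes of desmosomes, hemidesmosomes and plakins, 17 were tested, 9 fell, 5 rose and 3 did not pass, with a median log2 fold change of -0.18 beside -0.002 over all genes. Over all genes tested 25.9% were called lower and 28.5% higher, so the share that rose was close to that background. The number that fell was 6 with no filter or with a replicate block, and 6 to 9 when a library was left out. It was 10 with upper-quartile scaling or a filter of 1 TPM, and 11 with TPM as deposited. The plakin PLEC, which cross-links keratins to hemidesmosomes, fell the most, from 247 ± 3.14 to 91.2 ± 4.81 TPM (log2 fold change -1.18, SE 0.04, limma adjusted p = 1.44e-06). The desmosomal cadherins DSC2 (12.0 ± 0.674 to 5.02 ± 0.208 TPM) and DSG2 (69.7 ± 1.07 to 35.8 ± 0.195 TPM) fell by 0.89 and 0.70 on the log2 scale, and the integrin ITGA6 of hemidesmosomes fell by 0.68. JUP, the plakoglobin of the desmosomal plaque, rose from 104 ± 3.78 to 146 ± 4.58 TPM (log2 fold change 0.72, SE 0.03, limma adjusted p = 4.52e-06). DST, whose epithelial form is a hemidesmosomal plakin, and the plaque protein PKP3 rose by 0.66 each. PERP, a desmosomal membrane protein, was called higher at 0.25 with scaling, but it was level in deposited TPM (43.7 ± 1.54 and 44.1 ± 1.47), as was the tetraspanin CD151, whose fold change went from 0.23 to -0.012 without scaling.

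Among 10 genes whose proteins bind, fold, modify or degrade keratins, 6 rose and 4 did not pass, with a median log2 fold change of 0.24, where 28.5% of all genes tested were called higher. The limma count of genes that fell was 0 (1 at an unadjusted p under 0.05). KLHL24, a ubiquitin ligase adaptor for keratin turnover, had 4.94, 5.59 and 5.70 TPM in shCtrl and 10.2, 6.78 and 9.78 TPM in KD (log2 fold change 0.83, SE 0.14, limma adjusted p = 0.00272). SFN, the 14-3-3 protein of epithelia that binds keratins, rose from 314 ± 7.85 to 422 ± 14.4 TPM (log2 fold change 0.67, SE 0.03, limma adjusted p = 4.24e-06), and STUB1, a chaperone-linked ubiquitin ligase, rose from 79.7 ± 4.30 to 97.5 ± 6.50 TPM (log2 fold change 0.53, SE 0.05, limma adjusted p = 0.000173). The TRADD adaptor, which binds KRT18, was called higher by 0.27 with overlapping groups (14.1 to 15.0 TPM in shCtrl and 13.5 to 16.0 TPM in KD). This call was lost without shCtrl replicate 1 (limma adjusted p = 0.0586) or 2 (0.0631). It was also lost with upper-quartile scaling (limma adjusted p = 0.0516) and with TPM as deposited (0.656). With TPM as deposited only 3 of the 10 were higher and 4 were lower, so the direction of this list rests on the scaling.

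Transcription factors known to act on keratin genes or in epithelial differentiation were more often lower than higher. Of 15, 13 were tested, 9 fell, 1 rose and 3 did not pass, with a median log2 fold change of -0.43, where 25.9% of all genes tested were called lower and 28.5% higher. The number that fell was 7 to 10 when a library was left out. With TPM as deposited it was 10, where 6814 of all genes tested were called lower. These backgrounds cover genes of all levels, and whether level bears on the count was not tested. KLF4, named after its values were seen, lost its call with no filter (limma adjusted p = 0.074). That call was also lost without shCtrl replicate 3 (0.0556), KD replicate 2 (0.0764) or KD replicate 3 (0.0692). The grainyhead factors GRHL1 (8.92 ± 0.502 to 3.05 ± 0.402 TPM, log2 fold change -1.09, SE 0.10) and GRHL3 (1.85 ± 0.264 to 0.573 ± 0.0681 TPM, log2 fold change -0.73, SE 0.12), both of which act in epithelial barriers, had limma adjusted p values of 0.000133 and 0.00182. TFAP2A, an activator at many keratin promoters, fell from 7.62 ± 0.661 to 3.20 ± 0.531 TPM (log2 fold change -0.84, SE 0.12, limma adjusted p = 0.000882). GLI1, the Hedgehog effector, fell from 2.77 ± 1.12 to 0.777 ± 0.357 TPM (log2 fold change -0.92, SE 0.25, limma adjusted p = 0.0173), a call that was lost without KD replicate 1 (adjusted p = 0.0542), without KD replicate 3 (0.0512) and with no filter (0.0628). The rise of SP1 (0.30) had overlapping groups in deposited TPM and was not called without scaling.

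Intermediate filament genes of other types were compared for a view beyond the keratins. Of 15, 9 were tested, 6 fell, 2 rose and 1 did not pass, with a median log2 fold change of -0.73, where 25.9% of all genes tested were called lower and 28.5% higher. Those shares cover genes of all levels, while apart from LMNB1 the genes that fell averaged at most 7.84 TPM in shCtrl. The shCtrl libraries had 15135 to 15248 genes at 1 TPM or more and the KD libraries 14163 to 14292. Whether level bears on the count of this list was not tested. NES, nestin, fell from 6.91 ± 0.372 to 1.47 ± 0.242 TPM (log2 fold change -1.50, SE 0.11, limma adjusted p = 4.32e-05). Vimentin (VIM), the filament of mesenchymal cells, was scarce and fell from 3.05 ± 0.215 to 0.603 ± 0.335 TPM (log2 fold change -1.22, SE 0.18, limma adjusted p = 0.00136). Desmin (DES) and peripherin (PRPH) fell by 0.95 and 0.86 on the log2 scale. The nuclear lamins went both ways: LMNA (316 ± 2.77 to 407 ± 11.9 TPM) and LMNB2 (126 ± 3.35 to 141 ± 3.59 TPM) rose by 0.61 and 0.41, while LMNB1 (70.1 ± 0.676 to 35.1 ± 0.365 TPM) fell by 0.73 on the log2 scale (limma adjusted p = 5.21e-06). LMNB1 was named after its values were seen. With vimentin at about 3 TPM and KRT8 at 4426 TPM in shCtrl, keratins remained by far the most abundant cytoplasmic filament RNA of those listed in both groups.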

How the data were processed

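HCT116 RNA was sequenced in 3 shCtrl and 3 GMDS-AS1 KD libraries. The authors prepared poly-A libraries with a TruSeq kit, sequenced paired reads, named Cufflinks and RSEM for expression and DESeq2 for their own comparison, and deposited TPM per Ensembl gene. The submitters' processing notes list Trimmomatic 0.27, TopHat2 2.1.1 and GRCh38.p13. A value was read for 60662 genes, and 2 broken lines were left out. No libraries were identical. The keratins, the lists and the tests were chosen with earlier results of these data known, and design and lists were not changed afterwards. The members were taken as listed in the rule, and of each other list the text names up to 4 of the largest rises and falls past the threshold, other keratins averaging at least 0.5 TPM in a group, member pseudogenes averaging at least 1 TPM in a group and antisense genes of members.

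TPM was divided by trimmed-mean factors (30% of log ratios and 5% of means trimmed, no weights, 0.906 to 1.10), and a gene was tested when 3 or more libraries reached 0.5 TPM (16901 genes). In R 4.3.3, limma 3.58.1 was fitted with its trend option to log2(TPM + 1), after a test on simulated data, and p-values were adjusted by Benjamini-Hochberg over all genes tested. Adjusted p-values judge a difference against the spread between these libraries, which does not cover other hairpins or cell lines. Count models were not used, since TPM are not counts. Alternatives were TPM as deposited, upper-quartile scaling, a pseudocount of 0.1, no filter, a filter of 1 TPM, a replicate block, no variance trend and leaving out each library. Positions, coding sequences and overlaps were read from GENCODE v29 (58394 identifiers found) with Python 3.11.15. Protein sequences were not used here, and sequences of some keratins are not reported here.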

Additional observations from a re-analysis of the deposited data

How the results depend on the processing

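With TPM as deposited, 225 genes were at least 2-fold higher and 1177 at least 2-fold lower, 2756 were higher and 6814 lower, 2 other keratins were lower, 3 anchoring and 3 keratin-binding genes were higher, 4 keratin-binding genes were lower and 0 regulators were higher (limma, also 0 at an unadjusted p under 0.05). A pseudocount of 0.1 gave 1468 genes at least 2-fold lower, no filter gave 3 other keratins lower, and upper-quartile scaling gave 3 keratin-binding genes lower. Leaving out each library gave 0 to 1 other keratins lower, where KRT16 cannot pass the filter once a shCtrl library is missing (without shCtrl replicate 2 or 3 the count was 0, and without shCtrl replicate 1 it was KRT15), and 0 to 1 keratin-binding genes lower (1 without shCtrl replicate 1). Signs turned for KRT20 (-0.055 as deposited and -0.002 without shCtrl replicate 2), and among called genes of the lists for CD151 (-0.012 as deposited) and PNN (-0.001 as deposited). Some genes that were not called turned too, such as CDX2 (0.021 with scaling, -0.198 as deposited). Others included TFAP2C (0.057 and -0.127) and KRT34 (-0.009 with scaling, 0.064 without shCtrl replicate 1). The fold changes of the other tested keratins of the rule kept their sign under every alternative that gave a value. Leaving out a library, they ranged from -1.49 to -1.44 for KRT8, -1.86 to -1.82 for KRT18, -0.30 to -0.25 for KRT19, -1.44 to -1.08 for KRT7, -0.68 to -0.18 for KRT10, -1.24 to -1.05 for KRT80, -0.97 to -0.94 for KRT81 (KD libraries only, as it fails the filter without a shCtrl library) and 1.37 to 1.52 for KRT23, and from -0.002 to 0.116 for KRT20. Same-numbered libraries did not deviate together over all genes (correlations 0.029, -0.038 and 0.014). No pairing by number was seen, but such a correlation can miss a weak one. With a replicate block PKP2 (adjusted p = 0.0744), EPPK1 (0.0851) and COL17A1 (0.0789) were no longer called, and counts kept within 1.5 times. The calls of PKP2, EPPK1 and COL17A1 were also lost with no filter and without most single libraries. The unknown depth and 3 libraries per group limit precision for keratins near 1 TPM.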
